A study of Mus musculus with 6 samples.

Results

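Autophagy genes were followed in mouse Th17 cultures grown with oligomycin or with its solvent DMSO. The set held 38 of the 10041 rows of the deposited expression table: every row named Atg, Ulk, Wipi, Map1lc3 or Gabarap with its number or suffix, and Becn1, Sqstm1, Optn, Nbr1, Rb1cc1, Pik3c3, Pik3r4, Uvrag, Ambra1, Tax1bp1, Tfeb, Tfe3 and Wdr45. Oligomycin cultures received 2.5 ng/ml of the compound, an inhibitor of the mitochondrial ATP synthase, and DMSO cultures received the vehicle. Cells of both groups began as naive CD4 T cells and were kept for 48 h with anti-CD3e bound to the plate (10 µg/ml) and 1 µg/ml anti-CD28. The medium held IL-23 at 10 ng/ml, IL-6 at 20 ng/ml and TGF-β1 at 2.5 ng/ml, a mixture that drives such cells toward Th17 cells, which make IL-17. RNA was sequenced from 3 samples per group, and the study asks how this differentiation depends on oxidative phosphorylation. The labels give neither strain, sex nor age of the mice, nor whether the samples of a group come from separate animals, so p-values measure the spread between these samples only.

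Macroautophagy encloses cytoplasm or organelles in a double membrane, the autophagosome, and delivers them to lysosomes. The ULK kinase complex starts the process, a phosphatidylinositol 3-kinase complex marks the membrane, ATG9 vesicles and ATG2 supply lipid, and a ubiquitin-like conjugation system attaches proteins of the ATG8 family (LC3 and GABARAP) to the growing membrane, where cargo receptors dock. In T cells autophagy removes mitochondria and supplies substrates after activation, and the kinases AMPK and mTORC1 connect it to the energy and amino acid state of the cell.

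Transcripts of 10 autophagy genes differed between the groups, 7 higher and 3 lower in oligomycin cultures. The genes that rose were Atg12, Atg14, Atg10, Atg5, Sqstm1, Ulk2 and Atg13, with group means 1.38 to 1.93 times those of DMSO cultures. The genes that fell were Optn, Atg9b and Gabarapl1. Levels are given in FPKM, the fragments of a transcript divided by its length and by the library size, and a gene was called where the adjusted p of limma's moderated test on log2(FPKM + 1), corrected over all 9986 rows tested, lay under 0.05. The 7 higher members are 18.4% of the set, beside 14% of all genes tested, and the 3 lower members are 7.89%, beside 16.1%. In either direction 26.3% of the members were called, against 30.2% of all genes tested, so the share of the set lay below that of the table. In 13 members the groups did not overlap (34.2%, beside 47.3% of all genes tested). All oligomycin values lay above all DMSO values in 10 of these (all genes tested, 23.1%) and below them in 3 (all genes tested, 24.3%). The median log2 change of the members was 0.07, against -0.0044 over all genes tested, and the median absolute change was 0.2168, against 0.3006.

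**Figure D1:**
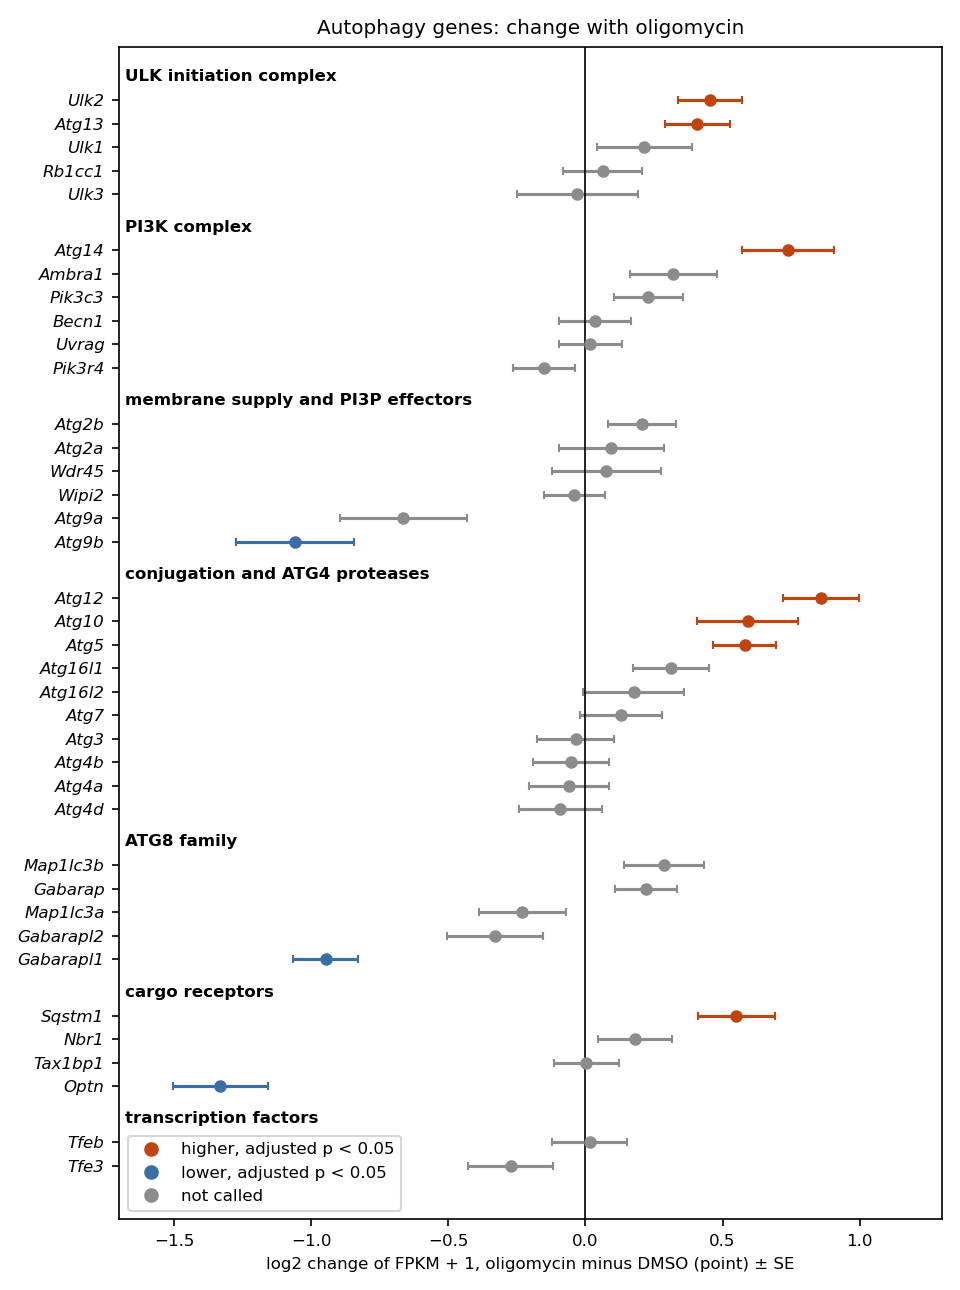
Change of each of the 38 autophagy genes, oligomycin minus DMSO, on the log2(FPKM + 1) scale (horizontal axis), grouped by the step in which the protein acts. Points are fitted changes and bars their SE; the 7 orange points to the right and the 3 blue points to the left are the called genes, and Optn lies farthest left at -1.33.

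The remaining 28 members were not called. Their log2 changes ran from -0.66 for Atg9a to 0.32 for Ambra1, with SE from 0.111 to 0.231 and adjusted p from 0.0593 to 0.983 in limma's test. Of these, 17 changes lay above 0 and 11 below, and 22 of the 28 were within 0.25 on the log2 scale. Members without a row in the table, among them Ulk4, Atg101, Atg4c and Wipi1, are not analysed here.

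In the initiation complex, 2 of 5 members rose (all genes tested, 14%), the kinase Ulk2 and the scaffold Atg13 that binds ULK kinases to their partners. Ulk2 (chr11:61775598-61855092, GRCm38, as are all positions here) had 10.6, 10.8 and 12.3 FPKM in oligomycin cultures, against 7.35, 8.16 and 8.21 FPKM in DMSO cultures. The lowest oligomycin library lay above the highest DMSO library. The log2 change was 0.45 ± 0.12 (SE, n = 3 each), with an adjusted p of 0.0209 in limma's test. Atg13 (chr2:91674612-91710592) had 9.21, 11.4 and 10.5 FPKM with oligomycin and 7.53, 7.61 and 7.42 FPKM with DMSO, also without overlap. Its change was 0.41 ± 0.12, with an adjusted p of 0.0334. Both calls were lost when single libraries were left out. Without DMSO replicate 1, 2 or 3 the adjusted p of Ulk2 was 0.0757, 0.0512 and 0.0592 and that of Atg13 was 0.0861, 0.0806 and 0.104. Without oligomycin replicate 3 they were 0.0725 and 0.0878, and without oligomycin replicate 2 that of Atg13 was 0.0793.

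The other members of the complex were not called. Ulk1, the kinase that AMPK and mTORC1 phosphorylate, averaged 4.48 ± 0.868 FPKM with oligomycin and 3.72 ± 0.677 FPKM with DMSO (SD, n = 3 each), and its log2 change of 0.21 had an adjusted p of 0.373. Per length, Ulk2 was thus at a higher level than Ulk1 in all 6 libraries, 2.04 to 2.97 times with oligomycin and 1.83 to 2.33 times with DMSO. Rb1cc1, which encodes the scaffold FIP200, averaged 8.81 ± 1.53 and 8.31 ± 0.381 FPKM with oligomycin and DMSO. Ulk3 ranged from 2.94 to 6.35 FPKM among the oligomycin libraries and from 4.62 to 4.97 FPKM among the DMSO libraries, so its spread with oligomycin exceeded any difference between the groups.

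Among the 6 members of the phosphatidylinositol 3-kinase complexes only Atg14 passed the test, and it rose (all genes tested, 14% higher). ATG14 directs this kinase to the sites where autophagosomes form, whereas UVRAG takes the same place in a second complex that acts on endosomes. Atg14 (chr14:47540893-47568434) had 4.47, 6.30 and 4.67 FPKM in oligomycin cultures and 3.06, 2.2 and 2.75 FPKM in DMSO cultures. The groups were apart, with the lowest oligomycin library above the highest DMSO library. The mean was 1.93 times as high with oligomycin, and the log2 change was 0.74 ± 0.17, with an adjusted p of 0.0127 in limma's test that stayed under the threshold with any library left out. Uvrag averaged 12.7 ± 0.711 FPKM with oligomycin and 12.6 ± 0.938 FPKM with DMSO, and the ratio of Atg14 to Uvrag within a library was 0.403 ± 0.0579 with oligomycin and 0.214 ± 0.0395 with DMSO.

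Becn1, whose protein beclin 1 is shared by both complexes, was the most abundant of this class per length. It had 67.1, 78.9 and 66.9 FPKM with oligomycin and 61.0, 78.0 and 69.1 FPKM with DMSO, and the values interleave. The row spans the coding gene Cntd1 on the other strand and the strand of the libraries is not given, so reads of these genes cannot be told apart. The catalytic subunit Pik3c3 averaged 18.1 ± 2.21 and 15.2 ± 0.892 FPKM with oligomycin and DMSO (log2 change 0.23, adjusted p = 0.194, limma), and the regulatory subunit Pik3r4 averaged 8.62 ± 0.590 and 9.68 ± 0.416 FPKM (-0.15, adjusted p = 0.339). Ambra1, a beclin 1 partner, had 11.8, 16.0 and 10.4 FPKM with oligomycin and 9.55, 10.3 and 9.61 FPKM with DMSO. Its groups did not overlap, yet the gap between them was small and the adjusted p was 0.156.

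Of the 6 genes for membrane supply and for readers of the lipid mark, Atg9b fell (all genes tested, 16.1% lower). ATG9 proteins are lipid scramblases carried on small vesicles that seed the autophagosome; Atg9a is the broadly expressed paralog. Atg9b (chr5:24364819-24392143) had 2.96, 1.23 and 1.75 FPKM in oligomycin cultures, against 5.63, 4.86 and 4.66 FPKM in DMSO cultures. Every oligomycin library lay below every DMSO library, the mean was 2.55-fold lower, and the log2 change was -1.06 ± 0.22, with an adjusted p of 0.00792 in limma's test. The row spans Nos3 on the other strand and the strand of the libraries is not given in the sources used here, so reads of these genes cannot be told apart. Atg9a (chr1:75180866-75191923) had 3.09, 5.85 and 3.32 FPKM with oligomycin and 5.55, 8.86 and 6.47 FPKM with DMSO, and only oligomycin replicate 2 reached into the DMSO range. Its log2 change of -0.66 ± 0.23 missed the threshold with an adjusted p of 0.0593, and without oligomycin replicate 2 it was -0.90 with an adjusted p of 0.0116.

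The other 4 genes of this class were not called. Wipi2, which reads the lipid mark and recruits the conjugation machinery, was the most abundant of them per length, with 26.8, 31.5 and 28.1 FPKM with oligomycin and 28.6, 31.2 and 29.1 FPKM with DMSO, values that interleave. The lipid transporters Atg2a and Atg2b averaged 6.83 ± 1.92 and 14.6 ± 1.13 FPKM with oligomycin, against 6.23 ± 0.911 and 12.5 ± 1.35 FPKM with DMSO; the Atg2b row spans Gskip on the other strand. Wdr45, another reader of the mark, ranged from 9.40 to 17.5 FPKM among oligomycin libraries and from 11.3 to 12.8 FPKM among DMSO libraries.

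The conjugation system held 3 of the 7 genes that rose, all of them in the branch that joins ATG12 to ATG5. These are 30% of its 10 members, beside 14% of all genes tested. In this branch ATG7 activates ATG12, ATG10 transfers it to ATG5, and the product binds ATG16L1 and places LC3 and GABARAP on the membrane. Atg12 (chr18:46732417-46741579) had 20.1, 26.5 and 27.9 FPKM in oligomycin cultures and 13.4, 12.6 and 13.3 FPKM in DMSO cultures. The DMSO libraries lay close together and all oligomycin libraries stood above them. The mean was 1.89 times as high with oligomycin, with a log2 change of 0.86 ± 0.14 and an adjusted p of 0.00291 in limma's test. Atg5 (chr10:44268358-44364291) had 26.7, 26.9 and 27.2 FPKM with oligomycin and 17.4, 16.0 and 19.8 FPKM with DMSO. The oligomycin libraries were almost equal and all above the DMSO libraries, and the change was 0.58 ± 0.11 (1.52 times, adjusted p = 0.00686, limma). Both calls held with any library left out.

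Atg10 (chr13:90935349-91223987), the E2-like enzyme between them, had 4.84, 5.39 and 3.13 FPKM in oligomycin cultures and 2.69, 2.39 and 2.61 FPKM in DMSO cultures. The groups did not overlap, though oligomycin replicate 3 lay near the DMSO values. The log2 change of 0.59 ± 0.19 had an adjusted p of 0.0423 in limma's test, which rose to 0.0898, 0.109 and 0.104 without DMSO replicate 1, 2 or 3, to 0.0910 and 0.109 without oligomycin replicate 1 or 2, and to 0.0552 after quantile normalization. Atg16l1 (chr1:87756011-87792428) had 13.0, 16.0 and 15.0 FPKM with oligomycin and 9.81, 12.5 and 12.8 FPKM with DMSO. Its groups were also apart, but the change of 0.31 had an adjusted p of 0.123, and the row shares its locus with the small RNA Scarna6.

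The remaining conjugation genes did not pass the test. The E1-like Atg7 averaged 9.62 ± 1.79 FPKM with oligomycin and 8.61 ± 0.397 FPKM with DMSO, and Atg3, the E2-like enzyme of the LC3 branch, averaged 16.6 ± 1.68 and 17.1 ± 2.70 FPKM with oligomycin and DMSO. Atg16l2, a paralog of Atg16l1, averaged 13.1 ± 2.75 and 11.4 ± 2.14 FPKM. The ATG4 proteases trim ATG8 proteins before conjugation and release them afterwards; Atg4b averaged 18.2 ± 3.02 FPKM with oligomycin and 18.8 ± 1.43 FPKM with DMSO, and Atg4d, whose row shares its locus with Kri1, averaged 11.5 ± 2.43 and 12.2 ± 0.739 FPKM. The row named Atg4a lies on chromosome 3 at the place of the pseudogene Atg4a-ps in GENCODE, so its 3.52 ± 0.310 FPKM with oligomycin and 3.72 ± 0.520 FPKM with DMSO cannot be assigned to Atg4a itself. The adjusted p of these 6 genes ran from 0.493 for Atg16l2 to 0.861 for Atg3.

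**Figure D2:**
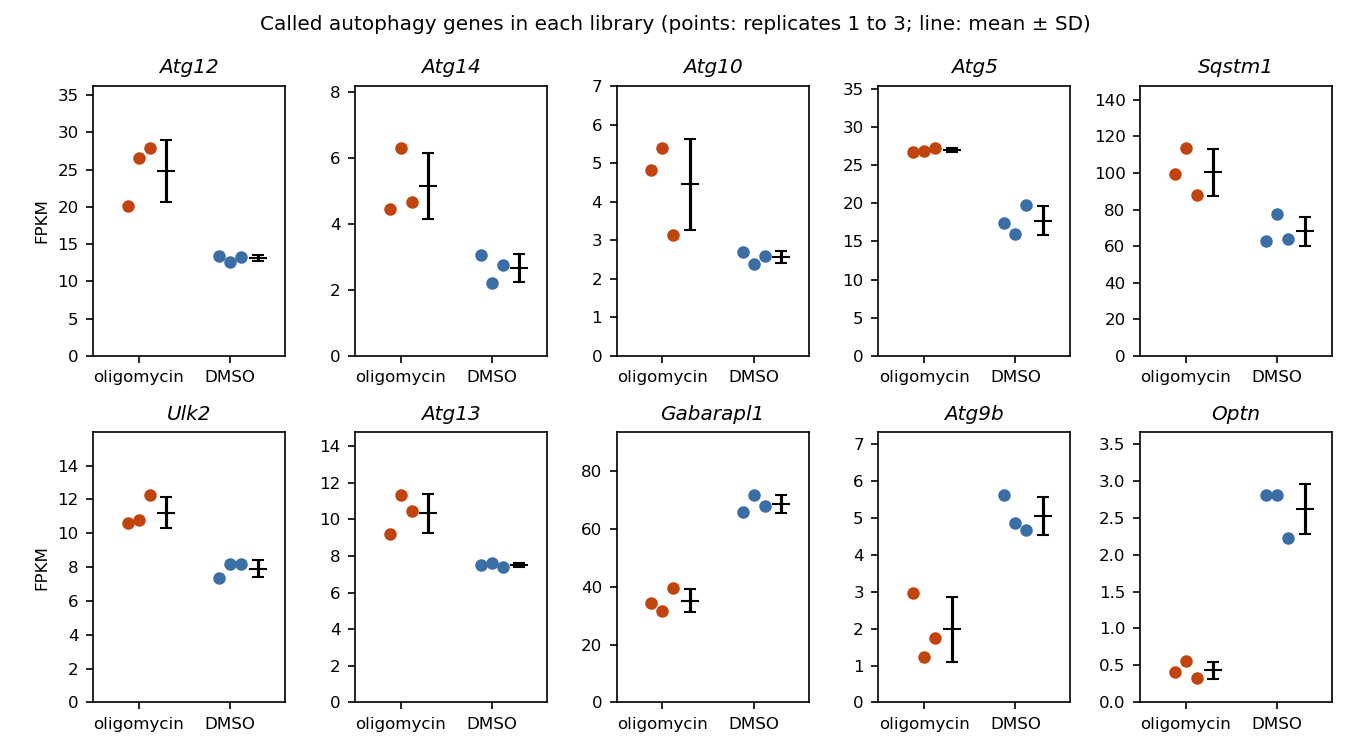
FPKM of the 10 called autophagy genes in each oligomycin library (left) and each DMSO library (right), with the group mean and SD beside the points (n = 3 each). In every panel the groups are apart; for Atg10, the lowest oligomycin library has 3.13 FPKM and the highest DMSO library 2.69 FPKM.

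Upstream sequences of the conjugation genes are shown for the palindrome CACGTG, the E-box core that TFEB and TFE3, both members of the set, bind in lysosomal and autophagy genes. RefSeq start sites (GRCm38.p6) matched 31 of the 38 members on the row's own chromosome. In the 250 bases upstream, CACGTG, which reads the same on both strands, was present in 3 of the 31 (Atg3, Atg5 and Atg7), beside 6.02% of all 32851 mouse promoters in the table. The RefSeq start used for Atg7 lies 27999 bases inside the span of its row, so that window is not upstream of the row, whereas the starts of Atg3 and Atg5 lie 0 and 19 bases from theirs. The 120 bases upstream of the start of Atg5, which was higher with oligomycin, and of Atg3, which was not called, read as follows on the plus strand, with CACGTG in capitals.
Atg5, chr10:44268219-44268338: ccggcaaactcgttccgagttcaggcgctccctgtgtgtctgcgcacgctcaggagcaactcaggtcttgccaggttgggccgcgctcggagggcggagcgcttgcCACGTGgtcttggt
Atg3, chr16:45158709-45158828: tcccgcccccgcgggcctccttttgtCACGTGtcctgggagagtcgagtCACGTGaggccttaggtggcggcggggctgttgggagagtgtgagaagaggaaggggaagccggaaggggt
The extended form TCACGTGA, which contains the core and is also a palindrome, was present in 1 of the 31, Atg3, beside 0.785% of all promoters. The composite site TGATGNAA of C/EBP and ATF factors (TTNCATCA on the other strand) was present in 0 of the 31, beside 3.45%. A member was counted once if any of its windows matched, whereas the percentages are shares of all windows, so the units differ. A match describes the letters of this window and is not a measured binding site.

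The ATG8 family, the ubiquitin-like proteins that coat the autophagosome and hold cargo receptors, shifted in its make-up. Gabarapl1 (chr6:129532184-129542331) had 34.3, 31.7 and 39.5 FPKM in oligomycin cultures, against 65.7, 71.8 and 68.0 FPKM in DMSO cultures. Every oligomycin library lay far below every DMSO library, the mean was 1.95-fold lower, and the log2 change was -0.95 ± 0.12, with an adjusted p of 0.000855 in limma's test. The most abundant member, Gabarap (chr11:69991370-69994949), had 105, 116 and 118 FPKM with oligomycin and 99.3, 90.8 and 101 FPKM with DMSO. All oligomycin values were above all DMSO values, while the change of 0.22 ± 0.11 was not called (adjusted p = 0.171). After quantile normalization it was called, with 0.40 and an adjusted p of 0.0465.

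The other 3 members were not called. Map1lc3b, the LC3 form used as the common autophagosome marker, averaged 22.8 ± 2.46 FPKM with oligomycin and 18.6 ± 3.11 FPKM with DMSO (log2 change 0.29, adjusted p = 0.169, limma). Gabarapl2 averaged 8.20 ± 1.61 and 10.6 ± 1.97 FPKM with oligomycin and DMSO (-0.33, adjusted p = 0.185), and Map1lc3a averaged 4.53 ± 0.271 and 5.56 ± 1.14 FPKM (-0.23, adjusted p = 0.299). By group means the order of levels was the same in oligomycin and DMSO cultures: Gabarap, Gabarapl1, Map1lc3b, Gabarapl2, Map1lc3a.

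Within the FPKM sum of the family, Gabarapl1 made up 20.1%, 17.1% and 20.2% in oligomycin libraries and 33.2%, 36.1% and 33.4% in DMSO libraries. The share of Gabarap was 61.6% ± 1.11 with oligomycin and 48.4% ± 2.47 with DMSO (SD, n = 3 each). The ratio of Gabarap to Gabarapl1 was 3.08, 3.65 and 2.99 with oligomycin and 1.51, 1.27 and 1.48 with DMSO, so the groups did not overlap in any of these quantities. The sum over the family was 184 ± 12.7 FPKM with oligomycin and 200.2 ± 3.19 FPKM with DMSO. It was at most 195.8 FPKM with oligomycin and at least 197.7 FPKM with DMSO, so the groups did not overlap here either. The LC3 genes alone summed to 27.4 ± 2.68 FPKM with oligomycin and 24.2 ± 3.86 FPKM with DMSO, with overlap.

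**Figure D3:**
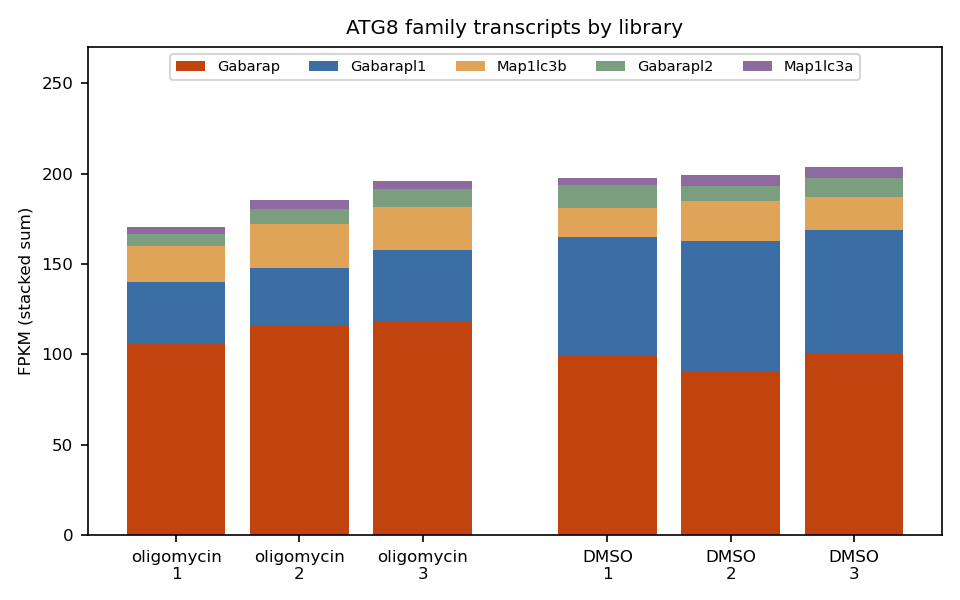
Stacked FPKM of the 5 ATG8 family genes in each library, oligomycin left and DMSO right. The blue Gabarapl1 segment is 31.7 to 39.5 FPKM high in oligomycin libraries and 65.7 to 71.8 FPKM in DMSO libraries. The total differs less, though every oligomycin total lies below every DMSO total.

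Of 4 cargo receptors, Sqstm1 rose, Optn fell and the others were not called (all genes tested, 14% higher and 16.1% lower). Sqstm1 encodes p62, which carries ubiquitinated cargo to LC3 and is itself degraded by autophagy. Sqstm1 (chr11:50200152-50210790) had 99.6, 114 and 87.9 FPKM in oligomycin cultures and 63.0, 77.5 and 63.9 FPKM in DMSO cultures. The groups did not overlap, and the log2 change was 0.55 ± 0.14 (1.47 times), with an adjusted p of 0.0195 in limma's test. This call was lost without DMSO replicate 1 (adjusted p = 0.0757) or 3 (0.0802). Transcript levels do not measure the p62 protein.

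Optn encodes optineurin, a receptor for ubiquitinated mitochondria and bacteria. Optn (chr2:5020642-5063938) had 0.415, 0.556 and 0.334 FPKM in oligomycin cultures, against 2.81, 2.81 and 2.22 FPKM in DMSO cultures, without overlap. The mean was 6.01-fold lower, and the change on the log2(FPKM + 1) scale, which understates the change of low genes, was -1.33 ± 0.17, with an adjusted p of 0.00100 in limma's test. Optn was the lowest member by its oligomycin mean and entered the test only through its DMSO values, since all oligomycin values were under the filter of 1 FPKM; a gene of this kind had to differ. The ratio of Sqstm1 to Optn within a library was 240, 204 and 264 with oligomycin and 22.5, 27.6 and 28.7 with DMSO. Optn is its denominator, so the ratio carries the same limit.

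The other receptors were not called. Tax1bp1, which acts with NBR1 and p62 on protein aggregates, had 58.8, 70.8 and 67.7 FPKM with oligomycin and 68.6, 66.2 and 61.5 FPKM with DMSO, interleaved values with an adjusted p of 0.983. Nbr1 averaged 19.6 ± 2.45 FPKM with oligomycin and 17.1 ± 1.89 FPKM with DMSO (log2 change 0.18, adjusted p = 0.331). Per length, Sqstm1 lay above Tax1bp1 with oligomycin, with a ratio of 1.53 ± 0.207, and near it with DMSO, with a ratio of 1.04 ± 0.125.

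Neither transcription factor of the set was called. TFEB and TFE3 are held in the cytoplasm when mTORC1 is active and switch on lysosomal and autophagy genes once they enter the nucleus, so their transcript levels do not report their activity. Tfe3 had 9.76, 7.93 and 6.60 FPKM with oligomycin and 9.22, 11.2 and 9.34 FPKM with DMSO, with overlap at oligomycin replicate 1, and its change of -0.27 had an adjusted p of 0.213. Tfeb had 6.55, 6.66 and 5.28 FPKM with oligomycin and 5.63, 6.72 and 5.85 FPKM with DMSO, interleaved values with an adjusted p of 0.937.

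**Figure D4:**
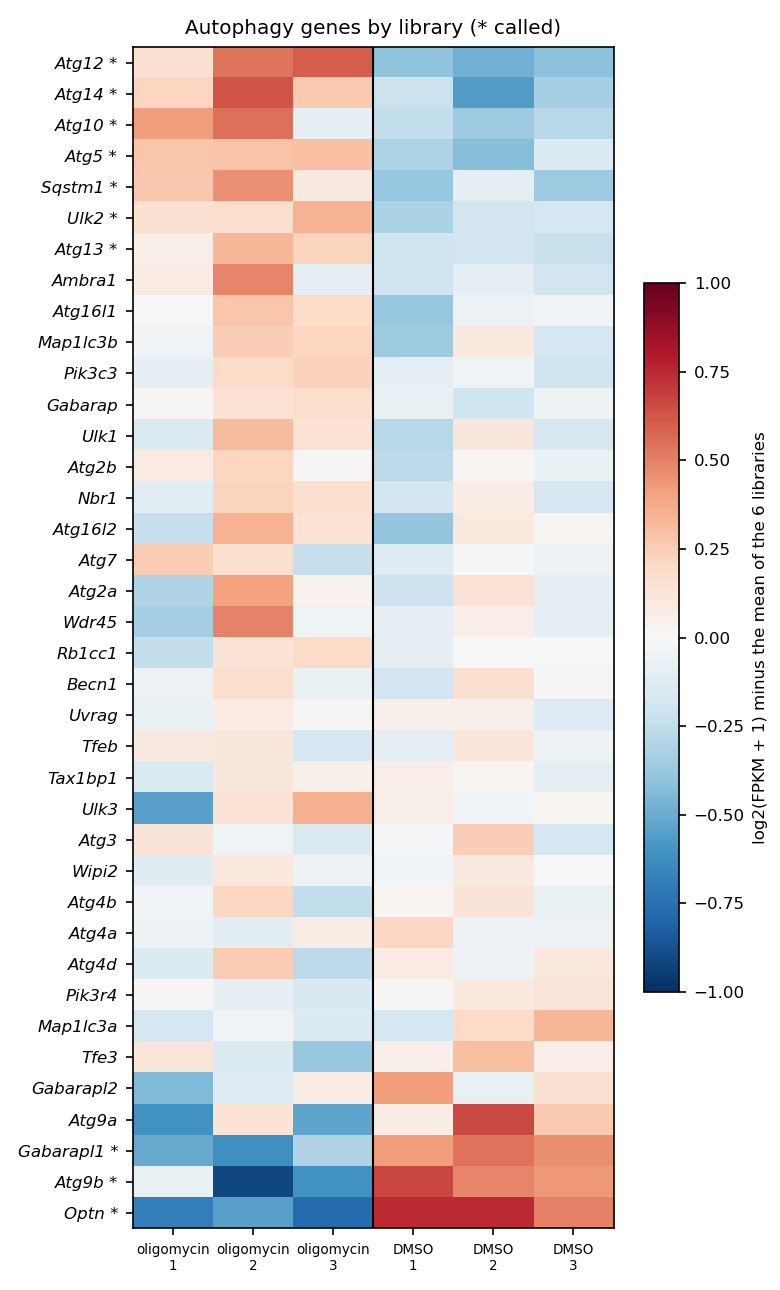
Heat map of log2(FPKM + 1) minus the mean of the 6 libraries for each of the 38 autophagy genes (rows, ordered by fitted change, called genes with an asterisk) in oligomycin (left) and DMSO libraries (right). The called genes form the top and bottom rows, and oligomycin replicate 2 holds the highest value of all 6 libraries in 19 members.

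Genes around the core machinery were read from lists by process. Of 16 further selective autophagy and mitophagy receptors tested, 3 rose and 2 fell, with a median log2 change of -0.06; over all genes tested, 14% rose, 16.1% fell and the median was -0.0044. Bnip3 and Bnip3l, hypoxia-inducible receptors on the outer mitochondrial membrane, fell: Bnip3 had 7.75, 4.0 and 6.18 FPKM in oligomycin cultures and 37.2, 44.5 and 39.2 FPKM in DMSO cultures (log2 change -2.60, adjusted p = 7.2e-05, limma). Bnip3l averaged 20.1 ± 3.46 FPKM with oligomycin and 36.2 ± 2.92 FPKM with DMSO (-0.83, adjusted p = 0.00359). Pink1, the kinase that flags damaged mitochondria, rose, with 30.3, 48.4 and 39.7 FPKM with oligomycin and 19.7, 21.9 and 17.3 FPKM with DMSO (0.95, adjusted p = 0.00503). The endoplasmic reticulum receptor Ccpg1 rose as well, with 10.2 ± 1.25 and 5.79 ± 0.102 FPKM in oligomycin and DMSO cultures (0.72, adjusted p = 0.00402). Mitochondrial receptors and their kinase thus lay on both sides, and without oligomycin replicate 1 the list counted 4 genes higher and 4 lower.

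Of 17 regulators of autophagosome assembly, 2 rose and 4 fell, with a median change of 0.09, beside 14% higher and 16.1% lower among all genes tested. C9orf72 (row 3110043O21Rik), part of a complex that acts on Rab GTPases, averaged 15.0 ± 0.429 FPKM with oligomycin and 6.49 ± 0.856 FPKM with DMSO (1.1, adjusted p = 0.000523, limma). Trp53inp1, which binds LC3, also rose, with 107 ± 26.0 and 58.7 ± 7.44 FPKM in oligomycin and DMSO cultures (0.83, adjusted p = 0.0121). Bcl2l1, whose protein BCL-XL binds beclin 1, fell, with 42.2 ± 6.10 FPKM with oligomycin and 75.7 ± 3.63 FPKM with DMSO (-0.84, adjusted p = 0.00230). Rab1a (row Rab1) fell with 23.2 ± 4.54 and 40.2 ± 6.15 FPKM (-0.77, adjusted p = 0.00970), and so did the lipid scramblase Tmem41b and Trp53inp2. The count of lower genes was 2 without DMSO replicate 1 or 3, and that of higher genes was 4 without oligomycin replicate 1.

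Of 19 genes for fusion of autophagosomes with lysosomes, 2 rose and 0 fell, with a median of 0.12 (all genes tested, 14% and 16.1%). At an unadjusted p under 0.05 these counts were 3 and 1. Epg5 (row 5430411K18Rik), a tether between both organelles, averaged 14.6 ± 1.05 FPKM with oligomycin and 6.27 ± 0.828 FPKM with DMSO (1.1, adjusted p = 0.000630, limma). Lamp1, an abundant protein of the lysosomal membrane, averaged 107 ± 9.81 and 77.7 ± 7.29 FPKM with oligomycin and DMSO (0.45, adjusted p = 0.0286). The fusion GTPase Rab7 had a change of -0.53 and the tether subunit Vps33a of 0.34, neither called (adjusted p = 0.0896 and 0.0926). Leaving out DMSO replicate 1, DMSO replicate 3, oligomycin replicate 1 or oligomycin replicate 2 left 1 higher gene.

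Of 23 lysosomal targets of TFEB and TFE3, 5 rose and 2 fell, with a median of 0.35 (all genes tested, 14% and 16.1%). Lamp1, described above, is among the genes that rose. The galactosidase Gla and the glucuronidase Gusb fell; Gla had 2.93, 4.22 and 4.18 FPKM with oligomycin and 14.9, 12.5 and 10.3 FPKM with DMSO (-1.50, adjusted p = 0.000542), and Gusb averaged 17.1 ± 1.27 and 25.5 ± 1.87 FPKM (-0.55, adjusted p = 0.00876). At an unadjusted p under 0.05 the counts were 11 higher and 3 lower, beside 2056 and 2214 of the 9986 genes tested. The count of called higher genes varied, being 1 without DMSO replicate 1 or 3, 3 without oligomycin replicate 1 or 2, and 8 after quantile normalization. Over all genes the count called higher also fell, from 1403 to 816 without DMSO replicate 1 and 780 without DMSO replicate 3.

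Of 24 genes that connect AMPK, mTORC1 and TFEB, 6 rose and 3 fell, with a median of 0.10, where 14% of all genes tested rose and 16.1% fell. Sesn2 and Sesn3, sestrins that restrain mTORC1, rose: Sesn2 had 45.2, 33.9 and 28.8 FPKM in oligomycin cultures and 10.1, 10.6 and 10.6 FPKM in DMSO cultures (1.67, adjusted p = 0.000235, limma), and Sesn3 averaged 119 ± 8.83 and 74.8 ± 9.85 FPKM (0.67, adjusted p = 0.00672). AMPK subunits lay on both sides. Prkag2 rose with 12.4 ± 1.81 and 7.37 ± 1.07 FPKM (0.68, adjusted p = 0.0117), and Prkab1 rose as well (0.42, adjusted p = 0.0351). The more abundant Prkag1 fell, with 52.1 ± 1.14 and 66.6 ± 4.48 FPKM (-0.35, adjusted p = 0.0411), and Prkaa1 and Prkab2 were not called. Ddit4, another inhibitor of mTORC1, fell, with 52.4, 47.7 and 38.3 FPKM with oligomycin and 96.9, 129.7 and 98.7 FPKM with DMSO (-1.21, adjusted p = 0.00113). Leaving out DMSO replicate 1, DMSO replicate 2 or oligomycin replicate 3 left 1 lower gene.

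In the integrated stress response, the program of the transcription factors ATF4 and CHOP, 14 of 18 genes rose and 1, Vldlr, fell, with a median of 0.85, against 14% higher and 16.1% lower over all genes tested. Atf5, a factor of this program, averaged 33.8 ± 5.92 FPKM with oligomycin and 5.85 ± 0.880 FPKM with DMSO (2.34, adjusted p = 5.2e-05, limma), and the kinase-like Trib3 averaged 43.1 ± 9.25 and 7.35 ± 1.29 FPKM (2.39, adjusted p = 6.8e-05). Aldh1l2, a mitochondrial folate enzyme, averaged 5.74 ± 0.975 FPKM with oligomycin and 0.445 ± 0.0641 FPKM with DMSO (2.21, adjusted p = 7e-05). All DMSO values of Aldh1l2 lay under the filter of 1 FPKM, so it entered the test only through its oligomycin values and had to differ. Sesn2 belongs to this list as well. Vldlr, with all oligomycin values under the filter of 1 FPKM, likewise entered only through its DMSO values and had to differ. With the filter applied anew, Vldlr was no longer tested once a DMSO library was left out. On the rows tested with all 6 libraries, the list counted 1 gene lower without DMSO replicate 1 or 3 and 0 without DMSO replicate 2. Of the 12 autophagy members that depend on ATF4 or CHOP in mouse fibroblasts, 4 rose (Atg12, Atg5, Sqstm1 and Atg10), 0 fell and 8 were not called, with a median of 0.25, beside 14% of all genes tested called higher and 16.1% lower. At an unadjusted p under 0.05 the counts were also 4 and 0, and without DMSO replicate 1 or 3 only 2 rose. Whether ATF4 or CHOP acts on these genes in the T cells was not tested.

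The identity of the cells was read from marker lists. Summed over 7 T cell markers, oligomycin libraries had 1057 to 1232 FPKM and DMSO libraries 1248 to 1407 FPKM. Of these genes 0 rose and 2, Cd2 (319 ± 34.7 against 489 ± 37.4 FPKM) and Cd28 (102 ± 18.8 against 147 ± 19.0 FPKM), fell. Over all genes tested, 14% rose and 16.1% fell. The means of the CD3 genes were higher with oligomycin, though not called: Cd3d 205 against 177 FPKM, Cd3g 166 against 143 FPKM and Cd3e 55.5 against 46.9 FPKM. Cd4 and Cd5 had lower means and were not called. Summed over 7 Th17 markers, the ranges were 436 to 649 FPKM with oligomycin and 1771 to 2065 FPKM with DMSO. Of these genes 4 fell, among them Il17a (12.5 ± 2.45 against 247 ± 15.4 FPKM), and 1 rose (all genes tested, 16.1% and 14%). Another of the lower genes was Il23r. All its oligomycin values lay under the filter of 1 FPKM, so it entered the test only through its DMSO values and had to differ. Of 2 CD8 T cell markers only Cd8b1 had a row, at 2.90 ± 0.453 and 2.83 ± 0.257 FPKM with oligomycin and DMSO, and of 4 NK cell markers only Klrd1, at 16.3 ± 9.56 and 26.2 ± 11.8 FPKM. Markers of B cells, myeloid cells and red cells had no row and are not analysed here. In these bulk cultures fewer cells of a type and less RNA per cell cannot be told apart, and the part of the Th17 genes' fall in the autophagy values was not tested. Sequencing depth is unknown. Library medians lay between 13.8 and 14.7 FPKM, while FPKM sums ran from 1856865 to 2103404 with oligomycin and from 1434028 to 1922229 with DMSO, and small RNA rows made up 65.2% to 70.5% of the sums with oligomycin and 55.2% to 66.7% with DMSO. Their part in the autophagy values was not tested.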

How the data were processed

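RNA-seq of 6 libraries, 3 with oligomycin and 3 with DMSO, was analysed from the deposited FPKM, 1 value per gene and library. The submitters' processing notes name, without saying what the authors did with each, TopHat2 (2.1.0), Cuffdiff (2.2.1.3), Cuffnorm (2.2.1.1) and Cufflinks (2.2.1.0) and the mouse build GRCm38. Annotation, scaling, filters and strand are not stated in the labels or notes. Low values showed no common step, so whole reads could not be recovered, sequencing depth is unknown and no counting interval is given.

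The 9986 of 10041 rows that reached 1 FPKM in at least 3 libraries were tested on the log2(FPKM + 1) scale. The tool was limma 3.58.1 in R 4.3.3, with an intensity trend and the group as the only term; p-values are 2-sided and were adjusted over all tested rows by the Benjamini-Hochberg method. The procedure was tested on simulated data. Errors are SD over 3 libraries or SE of the fitted change, and fold values are ratios of group means. Columns carry a group and a number from 1 to 3, which is the replicate number used here and does not occur in the sample titles. Row starts are printed with 1 added, which made 2383 of 8999 equal to the GENCODE M21 start of the symbol, against 327 as written.

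Every member is named, with values per library for called members and for the most abundant of each role; each list is represented by up to 4 genes with the smallest p, apart from genes that are not reported here. Tmem41b, Trp53inp2, Vldlr, the AMPK subunits other than Prkag2 and the marker genes with values were added after their values were seen. So were the values per library of Atg9a, Atg16l1, Ambra1, Tax1bp1 and Tfeb. Members and lists were chosen with earlier results of these data known. Alternatives changed the pseudocount, filter, scaling, trend, rows, libraries and a replicate block.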

Additional observations from a re-analysis of the deposited data

How the results depend on the processing

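Atg5, Atg12, Atg14, Atg9b and Gabarapl1 were called under every alternative that tested them. So was Optn, but it had to differ, since it passed the filter only through its DMSO values. With the filter applied anew, Optn was not tested once a DMSO library was left out. The count of members called higher remained 7 with pseudocounts of 0.1 and 5, no filter, median centring, no trend and without rows sharing a locus. It was 3 to 6 with a library left out, 3 of them without DMSO replicate 1 or 3. The count called lower was then 2 to 4, and it was 2 where leaving out a DMSO library left Optn untested. A filter of 5 FPKM left 1 member lower, because Optn and Atg9b were not tested. The members' median ran from -0.02 without oligomycin replicate 2 to 0.21 without oligomycin replicate 1. Over all genes, leaving out a library gave 1769 to 3312 called, 780 to 1447 higher and 989 to 1865 lower; fewest without DMSO replicate 3. Atg9a was called after quantile normalization (adjusted p = 0.0358), median centring (0.0479) and without rows sharing a locus (0.0382).

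Sign changes were limited to uncalled members. Quantile normalization gave Tfeb -0.03 and Wipi2 0.03. With a library left out, log2 changes ran from -0.05 to 0.12 for Becn1, -0.04 to 0.11 for Tfeb, -0.11 to 0.03 for Atg4a, -0.14 to 0.08 for Atg3, -0.05 to 0.08 for Tax1bp1, -0.04 to 0.06 for Uvrag, -0.11 to 0.01 for Wipi2, -0.22 to 0.23 for Ulk3, -0.09 to 0.27 for Atg2a, -0.15 to 0.26 for Wdr45, -0.02 to 0.20 for Rb1cc1, -0.17 to 0.06 for Atg4b and -0.24 to 0.01 for Atg4d. Except where fewer genes or libraries were tested, the cause was not tested.

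Titles give both groups the numbers 17, 42 and 43, but table columns carry 1 to 3, and nothing says what either number marks. Deviations from the group means over 9986 genes correlated by 0.056, 0.247 and 0.132 for columns 1, 2 and 3. Each DMSO column correlated best with the oligomycin column of its own number. Combinations of different numbers ran from -0.216 to 0.117, the highest being oligomycin replicate 1 with DMSO replicate 3. Whether the columns are pairs is not settled by these values, and the main fit took none as pairs. With the column number as a replicate block, 3532 genes were called, 1668 higher and 1864 lower; members counted 7 higher and 4 lower, Atg9a being added (adjusted p = 0.00894), with a median of 0.07. Under the block, TFEB and TFE3 targets counted 8 higher, AMPK, mTORC1 and TFEB genes 5 lower and fusion genes 1 lower. The block, and leaving out libraries on the rows tested with all 6, were chosen after seeing the data. Unknown depth limits low genes such as Optn.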

Other observations

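Oligomycin replicate 2 held the highest of the 3 oligomycin values in 23 of the 38 autophagy genes and in 18 of the 28 that were not called, against 5 and 10 of the 38 for oligomycin replicates 1 and 3. The median of log2(FPKM + 1) over the members, relative to each gene's mean over the 6 libraries, was 0.175 in that library and -0.055 and 0.024 in oligomycin replicates 1 and 3, and -0.101, 0.035 and -0.064 in DMSO replicates 1 to 3. Over all genes tested the same quantity lay between -0.047 and 0.037 in the 6 libraries.

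The ratio of Atg9a to Atg9b within a library was 1.04, 4.76 and 1.90 with oligomycin and 0.986, 1.82 and 1.39 with DMSO, so the groups overlapped. The ratio of Atg12 to Atg5 was 0.752, 0.986 and 1.02 with oligomycin and 0.767, 0.788 and 0.674 with DMSO, which also overlap.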
